A study of Mus musculus with 10 samples.

Results

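Hepcidin and the liver genes that sense, carry, store and export iron were examined in fetal livers that lacked paternal Mir483. The set held 10 genes, chosen by name: the hepcidin genes Hamp and Hamp2, the sensing genes Tfr2, Hfe, Tmprss6 and Bmp6, the transport genes Trf and Slc40a1, and the ferritin genes Fth1 and Ftl1. The choice was made with earlier results of these data known. All 10 were among the 55401 genes of the count table, and 9 of the 14098 genes with enough counts to be tested belonged to the set. Hamp2 was not tested. Liver RNA came from 10 female mouse fetuses at embryonic day 18.5, profiled by stranded polyA RNA-seq. In 5 fetuses, called Mir483Pat-KO, a deletion of Mir483 had been inherited from the father, whereas the 5 controls were WT littermates. The microRNA gene Mir483 lies inside Igf2, an imprinted growth factor gene that is active on the paternal copy. The knockout line was derived from targeted C57BL/6N embryonic stem cells of 2 independent clones, was constitutive rather than restricted to the liver, and was kept on a C57BL/6J background.

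Hepcidin is a small peptide hormone that hepatocytes secrete and that lowers the entry of iron into the blood by binding ferroportin, the iron exporter encoded by Slc40a1, and sending it for degradation. Its transcription rises when BMP6, a ligand made mainly by liver endothelial cells, signals through BMP receptors and SMAD proteins, and when inflammatory cytokines act through STAT3. HFE and transferrin receptor 2 report how much iron transferrin carries, whereas the protease TMPRSS6 (matriptase-2) cuts the BMP coreceptor hemojuvelin and so keeps hepcidin low. The fetal liver is also a site of red cell formation, a major consumer of iron, so that hepatocyte and erythroid transcripts are measured together in whole tissue. In such bulk RNA, fewer cells of a type and less RNA per cell cannot be told apart.

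The mouse has a pair of hepcidin genes side by side on the minus strand of chromosome 7, Hamp at chr7:30942368-30944032 and Hamp2 at chr7:30922372-30924681 (GRCm38). Their main transcripts, of 410 and 420 bases, were identical at 92.4% of aligned positions.

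Slc40a1, Fth1 and Ftl1 share an element that acts on RNA rather than DNA. The iron-responsive element is a hairpin in a 5′ untranslated region (UTR) to which iron regulatory proteins bind when cells are short of iron, which blocks translation and leaves the RNA level largely as it is. Each hairpin is shown 5′ to 3′ as RNA, read from the GENCODE M21 annotation of GRCm38, with the 6-base loop in capitals.
Slc40a1, chr1:45925465-45925493, minus strand: caacuucagcuaCAGUGUuagcuaaguuu
Fth1, chr19:9982732-9982760, plus strand: uuccugcuucaaCAGUGCuugaacggaac
Ftl1, chr7:45459779-45459807, minus strand: gucuugcuucaaCAGUGUuugaacggaac
A loop of CAGUGN closed by 5 base pairs with the usual bulged C was found in the 5′ UTR of 31 of 20900 genes, or 0.148%. No other member held one there. Tfrc, the transferrin receptor of dividing and erythroid cells, held 4 in its 3′ UTR, where the same proteins protect the RNA from decay.

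The deletion removes the mature microRNAs below, read from RefSeq (GRCm38.p6) on the minus strand of chromosome 7, with the seed (bases 2 to 8) in capitals.
miR-483-3p, chr7:142654932-142654952: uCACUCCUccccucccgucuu
miR-483-5p, chr7:142654968-142654989: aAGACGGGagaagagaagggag
The letters that pair with these seeds, AGGAGTG and CCCGTCT, occurred in the longest 3′ UTR of 12.6% and 3.28% of 12875 tested genes and in that of none of the 10 members.

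Total counts per library ran from 10831350 to 14765880, and levels are given below as CPM, the usual counts-per-million scale relative to the total of each library. The Mir483 gene had 10 to 22 counts in each WT library and 0 counts in each Mir483Pat-KO library, where a count of 0 allows up to 3 counts. Fetus identification numbers fell into a lower range, with 4 WT and 2 Mir483Pat-KO fetuses, and an upper range, with WT replicate 5 and Mir483Pat-KO replicates 3, 4 and 5. What a range marks is not stated in the labels. WT libraries carried index numbers 53 to 57 and Mir483Pat-KO libraries 60 to 64, so that index and genotype cannot be told apart. Hepatocyte markers were present in all libraries, with 8 listed genes summing to 200060 to 217388 CPM in WT and 187202 to 208594 in Mir483Pat-KO.

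Hamp varied more between fetuses than between genotypes. In WT replicates 1 to 5 it stood at 7.01, 35.5, 14.3, 2.95 and 1.31 CPM, from 19 to 436 counts. In Mir483Pat-KO replicates 1 to 5 it stood at 3.69, 1.36, 90.7, 19.0 and 69.3 CPM, from 17 to 1178 counts. Mir483Pat-KO replicates 3 and 5 lay above every WT library, and the other 3 lay within the WT range. Within a genotype the highest library exceeded the lowest 27.1-fold in WT and 66.5-fold in Mir483Pat-KO. The means were 12.2 ± 13.9 CPM in WT against 36.8 ± 40.7 CPM in Mir483Pat-KO (SD, n = 5 each). Hamp did not pass the test of genotype, with a log2 fold change of Mir483Pat-KO over WT of 1.57 (SE 0.823, adjusted p = 0.277, edgeR quasi-likelihood test with Benjamini-Hochberg adjustment over all genes tested). The direction turned once the identification number range was taken into account. With the range as a covariate the log2 fold change was −0.10 (adjusted p = 0.969), and among the 6 fetuses of the lower range alone it was −2.57 (adjusted p = 0.224). Without a filter on low counts the same fold change passed at an adjusted p of 0.000427, and adjusted p-values over all alternatives ran from 0.000427 to 1.

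The spread of Hamp was unusual for a gene of its level. The standard deviation of log2 CPM within groups was 2.22, against a median of 0.172 over the 14098 genes tested, and Hamp ranked 2 among them. Ctrb1, a pancreatic digestive enzyme gene named here after its value was seen, ranked first with 3.03. Among the 2791 genes within 0.5 log2 units of the average expression of Hamp, Hamp ranked 1, the next gene had a standard deviation of 1.09 and the median was 0.145. The other 8 tested members lay between 0.0667 for Fth1 and 0.849 for Bmp6, which ranked 56 and rested on 5 to 44 counts per library.

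**Figure D1:**
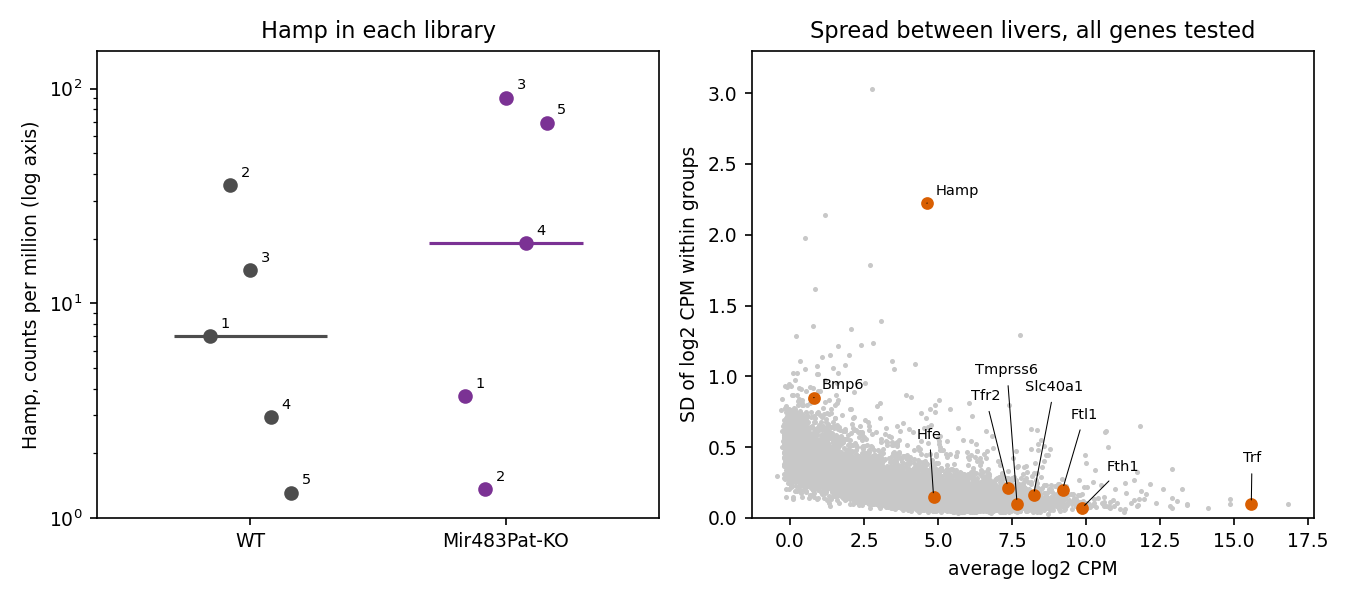
The left panel plots Hamp in CPM on a log axis for 5 WT and 5 Mir483Pat-KO libraries, numbered by replicate, with a line at each group median (7.01 and 19.0). The right panel plots the standard deviation of log2 CPM within groups against average log2 CPM for the 14098 genes tested (grey), and Hamp at 2.22 stands far above the other members (orange).

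Hamp2 RNA was nearly absent. WT replicate 1 had 2 counts, Mir483Pat-KO replicate 3 had 3 counts and the other 8 libraries had 0, so that every library was at or under the floor of 3 counts and no fold change is given. Of the 50-base stretches of the Hamp transcript, 16.6% also occurred in Hamp2, and 26.8% of those of Hamp2 occurred in another gene. Because reads from shared stretches could be assigned to either gene, the sum of both was also compared. Hamp plus Hamp2 reached 12.2 ± 13.9 CPM in WT against 36.9 ± 40.8 CPM in Mir483Pat-KO, a difference of 24.6 CPM (two-sided exact permutation test over 252 arrangements, p = 0.270, adjusted over 2 values p = 0.524). Among the fetuses of the lower range the difference was −12.5 CPM (exact p = 0.400).

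Of the 9 members tested, 1 passed at an adjusted p under 0.05, where 5.19% of all genes tested passed, 2.76% as lower and 2.43% as higher in Mir483Pat-KO. Tmprss6, whose product lowers hepcidin, was lower in Mir483Pat-KO. It stood at 223, 203, 218, 226 and 243 CPM in WT replicates 1 to 5. In Mir483Pat-KO replicates 1 to 5 it stood at 178, 161, 189, 199 and 194 CPM. Every Mir483Pat-KO library was under the lowest WT library. Groups failed to overlap in 6.91% of all genes tested, with Mir483Pat-KO the lower group in 2.28%. The mean was 222 ± 14.4 CPM in WT against 184 ± 15.1 CPM in Mir483Pat-KO (SD, n = 5), a log2 fold change of −0.31 (SE 0.0708, adjusted p = 0.0217), or 0.808 times the WT level. It did not reach the fold change of 1.5 that the study's call adds, which 0 members passed with edgeR, DESeq2 or limma-voom and 1.23% of all genes did. The log2 fold change was −0.37 with the range as a covariate (adjusted p = 0.00592) and −0.38 in the lower range alone (adjusted p = 0.117). With offsets for GC content and length it was −0.18 (adjusted p = 0.122), and without Mir483Pat-KO replicate 2 it was −0.27 (adjusted p = 0.0520), with adjusted p-values from 0.000719 to 1 over all alternatives. Of the 8 hepatocyte markers, 7 had fold changes below 0 and 1, Apoa1, passed as lower. Their part in the Tmprss6 difference was not tested.

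Tfr2, the hepatocyte iron sensor that is also expressed in erythroblasts, had a fold change close to that of Tmprss6 with more spread. Its WT libraries stood at 194, 141, 175, 193 and 202 CPM in replicate order. Its Mir483Pat-KO libraries stood at 146, 116, 169, 142 and 169 CPM. WT replicate 2 was the lowest WT library and the groups overlapped because of it, since the remaining WT libraries exceeded all Mir483Pat-KO libraries. The log2 fold change was −0.32 (SE 0.108, adjusted p = 0.0930), which did not pass. It was −0.40 without WT replicate 2 (adjusted p = 0.0286) and −0.42 with the range as a covariate (adjusted p = 0.0239). It was −0.20 with offsets for GC content and length (adjusted p = 0.229) and −0.25 without Mir483Pat-KO replicate 2 (adjusted p = 0.193), and adjusted p-values ran from 0.0123 to 1 over all alternatives.

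Hfe, which encodes a partner of the transferrin receptors, and Bmp6, the ligand upstream of hepcidin, did not pass. Hfe averaged 28.6 ± 1.27 CPM in WT against 28.7 ± 4.31 CPM in Mir483Pat-KO (log2 fold change −0.0252, SE 0.0917, adjusted p = 0.905). The Mir483Pat-KO libraries spread from 23.7 to 35.0 CPM around the narrow WT range of 27.3 to 30.3 CPM. Bmp6 stood at 0.876, 1.63, 3.10, 2.02 and 0.690 CPM in WT and at 0.384, 0.962, 1.92, 1.29 and 2.71 CPM in Mir483Pat-KO. The groups overlapped almost fully (log2 fold change −0.22, SE 0.431, adjusted p = 0.809), and the low counts limit the precision. In the lower range alone the log2 fold change was −1.54 (adjusted p = 0.257). Bmp6 shares 4.94% of its 50-base stretches with its neighbour Txndc5.

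The genes of iron carriage and export were abundant and did not pass. Trf, which encodes transferrin, the iron carrier of plasma, was the highest member at 50679 ± 3614 CPM in WT against 47687 ± 2882 CPM in Mir483Pat-KO. The groups overlapped, with WT libraries at 46129 to 55706 CPM and Mir483Pat-KO libraries at 42849 to 50452 CPM (log2 fold change −0.12, SE 0.0775, adjusted p = 0.375). Slc40a1 stood at 253, 344, 343, 283 and 264 CPM in WT and at 302, 284, 305, 295 and 319 CPM in Mir483Pat-KO. All Mir483Pat-KO libraries lay inside the WT range (log2 fold change −0.0197, SE 0.0902, adjusted p = 0.925). Slc40a1 is known to be high in macrophages that recycle red cells, and the 12 macrophage markers summed to 840 to 1051 CPM in WT against 773 to 1014 CPM in Mir483Pat-KO, with fold changes above 0 for 6 markers and below 0 for 6. Of the latter 2, Clec4f and C1qa, passed as lower, and none passed as higher.

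The ferritin genes, whose products form the shell that stores iron, also did not pass. Fth1, the heavy chain with the iron-oxidising site, had the smallest spread of the members, at 927 ± 25.2 CPM in WT against 923 ± 59.1 CPM in Mir483Pat-KO (log2 fold change −0.0428, SE 0.0644, adjusted p = 0.741). Ftl1, the light chain, averaged 575 ± 69.6 CPM in WT against 609 ± 105 CPM in Mir483Pat-KO (log2 fold change 0.0441, SE 0.105, adjusted p = 0.845). Ftl1 is the least certain member, because 90.6% of its 50-base stretches recur in 17 other annotated genes, among them ferritin pseudogenes, and 26.5% of its exon bases overlap Gm10252 on the opposite strand. The log2 ratio of Fth1 to Ftl1 was 0.70 ± 0.200 in WT and 0.61 ± 0.183 in Mir483Pat-KO, a difference of −0.0817 (two-sided exact permutation test, p = 0.524).

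**Figure D2:**
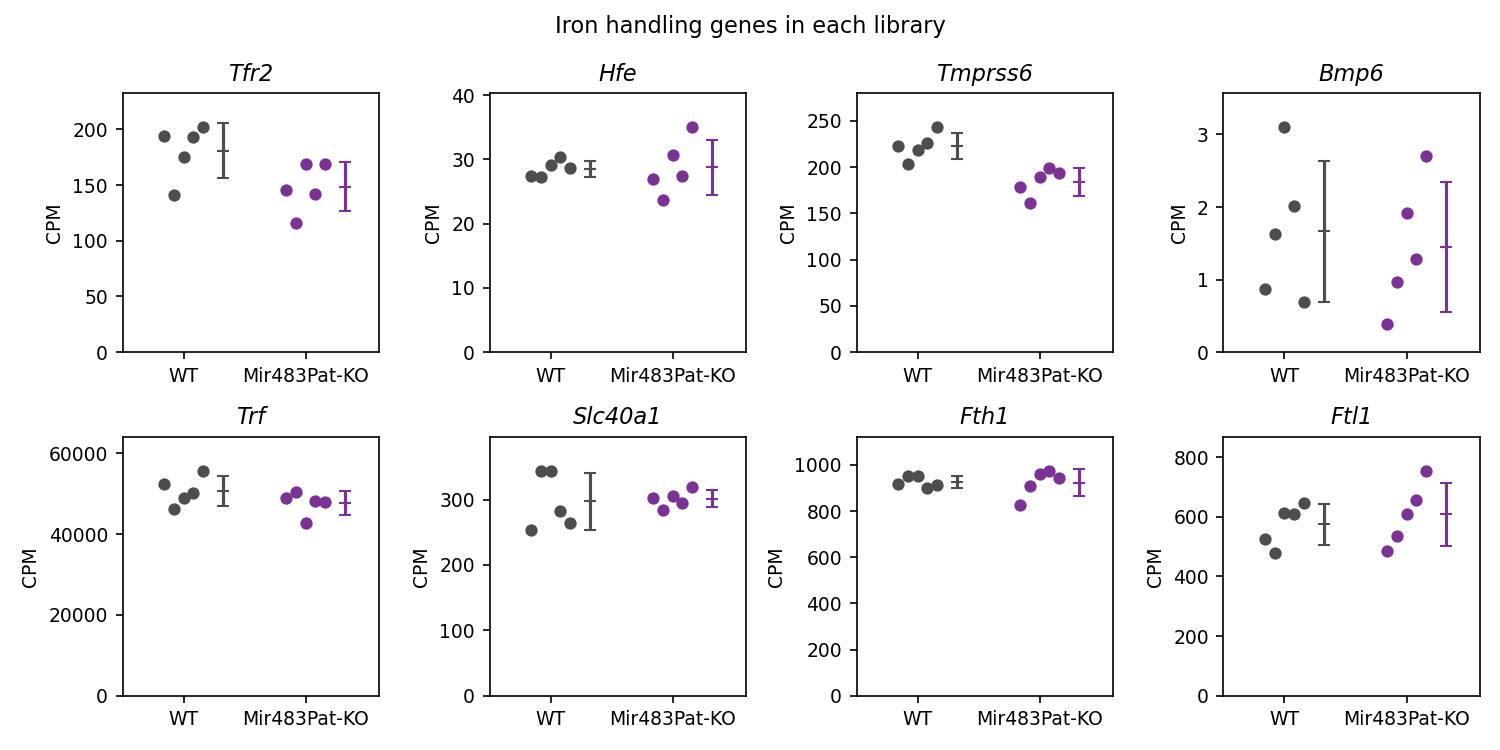
Each panel plots CPM in 5 WT (grey) and 5 Mir483Pat-KO (purple) libraries for 1 gene, from 0, with points in replicate order and the mean ± SD beside them. The groups separate for Tmprss6 (203 to 243 against 161 to 199 CPM) and overlap in the other 7 panels.

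Set out per kilobase of annotated exon, WT levels fell from Trf at 15265 CPM per kilobase to Ftl1 at 429, Fth1 at 267, Tmprss6 at 66.2, Tfr2 at 41.7, Slc40a1 at 33.1, Hamp at 29.8, Hfe at 8, Bmp6 at 0.426 and Hamp2 at 0.0601. The order depends on this choice of length, which counts all annotated exon bases of a gene. For Slc40a1 these were 9000 bases and for Fth1 3469, against 3370 and 1494 in the longest coding transcript. For Hamp both lengths were 410 bases. An order by transcript length was not computed. Slc40a1 and Hamp, as neighbours in the order given here, did not differ beyond the spread of Hamp. The Hamp level hides its range, since Mir483Pat-KO averaged 89.8 CPM per kilobase for Hamp and lay between Fth1 and Tmprss6 in the same order. Across the 9 tested members 7 fold changes were below 0, against 49.1% of all genes tested, and the median log2 fold change was −0.0428 against 0.0042 over all genes.

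The other genes of the pathway were taken as 4 lists of 65 genes, of which 62 were tested. Of these 62, 9 passed, 5 as higher and 4 as lower in Mir483Pat-KO, or 14.5% against 5.19% of all genes. The median log2 fold change of the 62 was −0.00447.

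The sensing list held BMP ligands, receptors and coreceptors, cytokine signalling genes and erythroid regulators, and 4 of its 21 genes passed. Furin, a protease that can process hemojuvelin and BMP precursors, fell from 182 ± 18.2 to 140 ± 10.1 CPM (log2 fold change −0.41, adjusted p = 0.00769), with 4 Mir483Pat-KO libraries under the lowest WT library. Creb3l3, a liver transcription factor that can raise hepcidin under endoplasmic reticulum stress, fell from 128 ± 5.57 to 106 ± 10.4 CPM (log2 fold change −0.31, adjusted p = 0.0272) without overlap of the groups. In the other direction, Socs3, a feedback inhibitor of STAT3 signalling, rose from 10.6 ± 1.03 to 14.5 ± 2.17 CPM (log2 fold change 0.42, adjusted p = 0.0379), likewise without overlap, as held with Mir483Pat-KO the higher group for 4.63% of all genes tested. Erfe, which encodes erythroferrone, the erythroblast hormone that lowers hepcidin by binding BMP ligands, rose from 4.22 ± 1.26 to 7.53 ± 1.02 CPM (log2 fold change 0.79, adjusted p = 0.0200), with 4 Mir483Pat-KO libraries over the highest WT library. Of Erfe exon bases, 12.7% lie opposite a gene of the other strand. None of the 4 passed in the lower range alone, where log2 fold changes were −0.45 for Furin (adjusted p = 0.124), −0.38 for Creb3l3 (adjusted p = 0.146) and 0.92 for Erfe (adjusted p = 0.135), each farther from 0 than over all libraries, and 0.18 for Socs3 (adjusted p = 0.560), which was closer to 0. Leaving out 1 library also ended calls: that of Erfe without Mir483Pat-KO replicate 2 or 4 (adjusted p = 0.0550 and 0.0633), that of Creb3l3 without Mir483Pat-KO replicate 2 or 4 or WT replicate 5 (adjusted p = 0.0583, 0.0629 and 0.0601), and that of Socs3 without any 1 of Mir483Pat-KO replicates 3, 4 and 5 and WT replicates 1, 4 and 5 (adjusted p = 0.0588 to 0.0877). Socs3 did not pass with the range as a covariate (log2 fold change 0.37, adjusted p = 0.0677), nor Creb3l3 with offsets for GC content and length (log2 fold change −0.21, adjusted p = 0.0833). Stat3 of the same list, named after its value was seen, averaged 132 ± 6.12 CPM in WT against 116 ± 6.41 CPM in Mir483Pat-KO, without overlap. It did not pass (log2 fold change −0.22, adjusted p = 0.0547), but did so with DESeq2 and without Mir483Pat-KO replicate 1. Hjv, the hemojuvelin gene, averaged 73.1 ± 10.7 and 63.6 ± 2.07 CPM (log2 fold change −0.23, adjusted p = 0.126, and 0.0131 without WT replicate 2), and Bmp2, another endothelial BMP ligand, 7.31 ± 0.905 and 6.72 ± 0.870 CPM (log2 fold change −0.16, adjusted p = 0.510), in WT and Mir483Pat-KO respectively.

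The uptake and transport list gave 5 passing genes of 23 tested. Cp, the ferroxidase ceruloplasmin that helps iron leave cells, rose from 559 ± 33.5 to 721 ± 52.6 CPM (log2 fold change 0.33, adjusted p = 0.0114). Slc39a8, a metal importer of the ZIP family, rose from 34.5 ± 3.04 to 44.3 ± 2.59 CPM (log2 fold change 0.32, adjusted p = 0.0217). Neither of these genes overlapped between groups, and with offsets for GC content and length neither passed (adjusted p = 0.148 and 0.300). Slc25a37, the mitochondrial iron importer mitoferrin that erythroblasts use for haem synthesis, rose from 1196 ± 152 to 1549 ± 104 CPM (log2 fold change 0.34, adjusted p = 0.0298). Lrp1, the receptor that clears haem bound to hemopexin, fell from 419 ± 52.2 to 318 ± 50.4 CPM (log2 fold change −0.43, adjusted p = 0.0310). The fifth, Hp, the haemoglobin-binding plasma protein haptoglobin, was named after its value was seen and fell from 1389 ± 275 to 1025 ± 120 CPM (log2 fold change −0.47, adjusted p = 0.0377). In the lower range alone none of these 5 passed, with log2 fold changes of 0.32 for Cp, 0.35 for Slc39a8, −0.38 for Lrp1, −0.46 for Hp and 0.20 for Slc25a37. Of these calls, only that of Cp held without each library in turn. The call of Slc39a8 ended without Mir483Pat-KO replicate 2 or 4 or WT replicate 4 (adjusted p = 0.0632, 0.0572 and 0.0530), that of Slc25a37 without any 1 of Mir483Pat-KO replicates 2 to 5 (0.0586 to 0.0799), that of Lrp1 without any 1 of Mir483Pat-KO replicates 2, 3 and 4 and WT replicates 3, 4 and 5 (0.0517 to 0.0799), and that of Hp without any 1 of Mir483Pat-KO replicates 2, 3 and 4 and WT replicates 1, 3, 4 and 5 (0.0678 to 0.0996). Hp also did not pass with the offsets for GC content and length (adjusted p = 0.0530) or with the robust fit (adjusted p = 0.0501). Tfrc averaged 455 ± 84.6 CPM in WT against 570 ± 42.8 CPM in Mir483Pat-KO. Its groups did not overlap, although the WT maximum and the Mir483Pat-KO minimum both round to 521 CPM, and it did not pass (log2 fold change 0.29, adjusted p = 0.139). With the range as a covariate Tfrc passed at a log2 fold change of 0.45 (adjusted p = 0.0144, within 0.0144 to 1 over all alternatives).

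Erythroid markers are given beside Erfe, Slc25a37 and Tfrc, which erythroblasts also express. The 12 markers reported here summed to 15841 to 21319 CPM in WT against 18808 to 27520 CPM in Mir483Pat-KO, so that the groups overlapped. Of these markers 10 had fold changes above 0, and 2, Hbb-bs and Rhag, passed as higher. Their log2 fold changes ran from −0.119 for Klf1 to 0.542 for Hbb-bs. The part of erythroid RNA in the Erfe, Slc25a37 and Tfrc values was not tested. Endothelial, stellate and neutrophil lists had 0 of 10, 0 of 9 and 0 of 6 genes passing, and their summed levels overlapped between groups. Fold changes were above 0 for 1 of 10, 3 of 9 and 4 of 6 genes respectively. The part of endothelial RNA in the Bmp6 and Bmp2 values was not tested.

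The storage and control list holds genes of ferritin turnover, iron regulatory proteins, iron chaperones and haem breakdown. Of its 11 tested genes, 0 passed with edgeR, DESeq2 or limma-voom. Hmox2, named after its value was seen, came closest with edgeR, at a log2 fold change of −0.20. Hmox1, which frees iron from haem, averaged 155 ± 32 CPM in WT against 163 ± 17.1 CPM in Mir483Pat-KO (log2 fold change 0.0429, adjusted p = 0.868). Aco1, which encodes iron regulatory protein IRP1, averaged 234 ± 12.6 and 238 ± 14.1 CPM (log2 fold change −0.0109, adjusted p = 0.941).

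**Figure D3:**
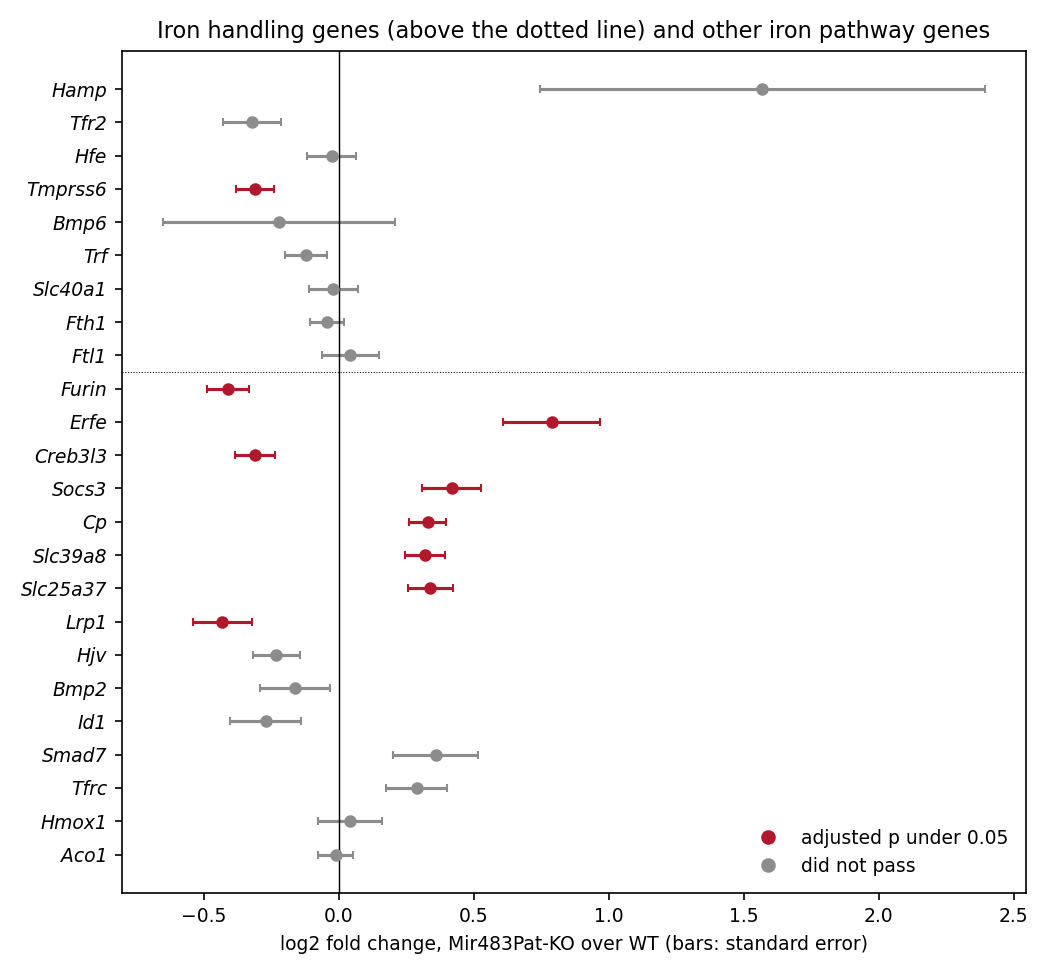
Points give the log2 fold change of Mir483Pat-KO over WT with its standard error for the 9 tested members (above the dotted line) and 15 other iron pathway genes, red where the adjusted p was under 0.05. Hamp has the largest value, 1.57, and the widest bar, 0.823, whereas Tmprss6 at −0.31 is the member in red.

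Whether Hamp moved with the BMP-SMAD pathway from fetus to fetus was asked with 8 SMAD target genes, of which 7 were tested. None passed the test of genotype with edgeR, DESeq2 or limma-voom. Id3, named after its value was seen, and Smad7 came closest with edgeR, at log2 fold changes of −0.25 and 0.36. Id1, the best known of these targets in hepatocytes, averaged 8.92 ± 1.38 CPM in WT against 7.61 ± 1.03 CPM in Mir483Pat-KO (log2 fold change −0.27, adjusted p = 0.244). Smad7, an inhibitor that the pathway induces against itself, averaged 6.12 ± 1.43 and 8.01 ± 1.32 CPM (log2 fold change 0.36, adjusted p = 0.187).

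Across the 10 libraries, after each gene was centred on the mean of its own genotype, Hamp had its highest Pearson correlation with Id2 (Pearson r = 0.85, adjusted p = 0.0486, Spearman rho = 0.76, adjusted p = 0.0710, exact permutation within groups, 7 genes compared). Before adjustment the p-values were 0.00694 and 0.0203. How many of all genes reach such an r with Hamp was not computed. The 5 genes most like Hamp, named below and not among the listed targets, had r of 0.91 to 0.97. For Id1 the values were r = 0.69 (adjusted p = 0.122) and rho = 0.78, the highest of the 7 (adjusted p = 0.0710, exact permutation), with unadjusted p-values of 0.0349 and 0.0126. The other 5 genes had r from −0.20 to 0.34. For each target gene, 2 libraries were also left out, those farthest from the median of its own log2 CPM. The pair left out could thus differ between genes, and this choice was made before centring on genotype. Then r was 0.82 for Id2, 0.64 for Atoh8, 0.53 for Id1, 0.0247 for Id3, −0.33 for Bambi, −0.45 for Smad6 and −0.47 for Smad7. No gene passed at the lower number of libraries, with a lowest adjusted p of 0.158 by exact permutation. Within the 6 fetuses of the lower range r was 0.62 for Id2, 0.31 for Id1, 0.60 for Atoh8, −0.12 for Bambi, −0.18 for Smad6, −0.59 for Id3 and −0.89 for Smad7, so that the value farthest from 0 was negative. With centring on both genotype and range over all 10 libraries r was 0.72 for Id2, 0.35 for Id1 and −0.42 to 0.37 for the other 5. The lower range allows 48 arrangements, so that 1 gene alone could not pass there (smallest exact p 0.0208, or 0.146 when multiplied by 7), and its r values are given without a call. With centring on genotype and range, which allows 288 arrangements, no gene passed (lowest adjusted p = 0.681, exact permutation). Hamp and Id2 differed in scale, since Id2 ran from 46.4 to 75.1 CPM while Hamp ran over a 69.2-fold range.

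**Figure D4:**
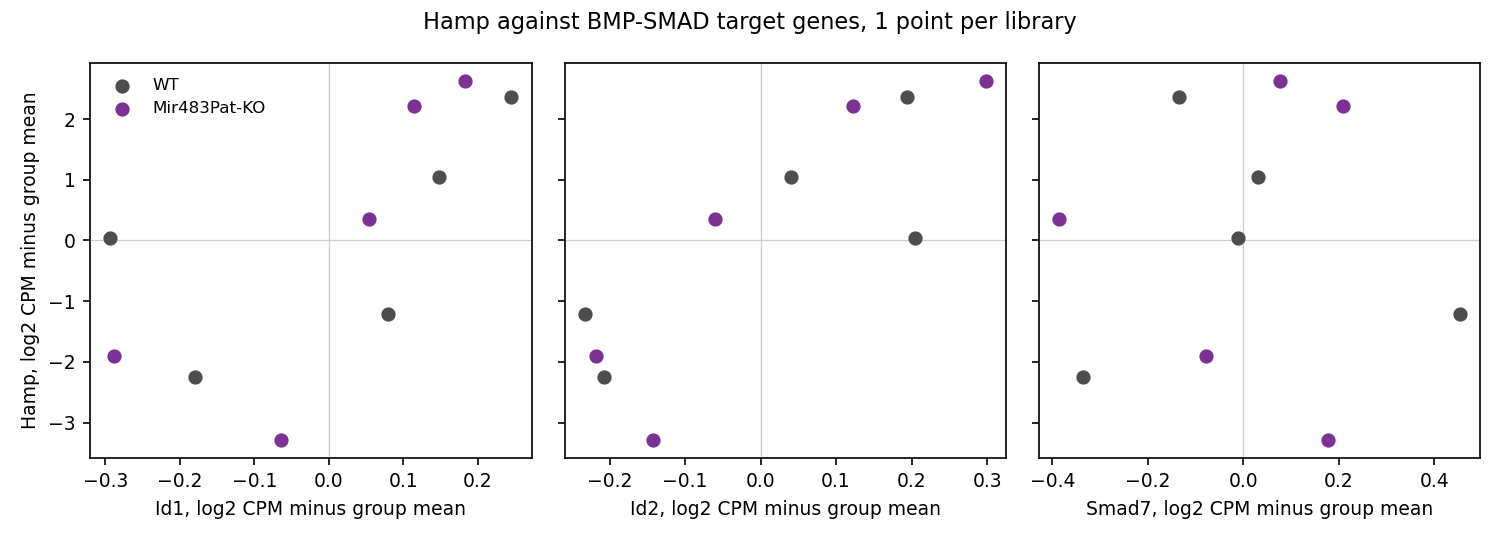
Each point is 1 library, with the log2 CPM of Hamp minus its group mean on the vertical axis and that of Id1, Id2 or Smad7 minus its group mean on the horizontal axis, for WT (grey) and Mir483Pat-KO (purple). Points rise together for Id2 (r = 0.85) and less tightly for Id1 (r = 0.69), whereas Smad7 has r = 0.00207 over all 10 libraries.

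Among 12549 genes with an average of 1 or more log2 CPM, the 5 whose centred log2 CPM was most like that of Hamp over the 10 libraries were Hgsnat (r = 0.97), Rcl1 (r = 0.92), Susd6, Slc8b1 and Anxa7 (r = 0.91 each), given as a description of a ranked list. Hgsnat encodes a lysosomal enzyme of heparan sulfate breakdown and ran from 50.6 to 63 CPM. The highest library exceeded the lowest by 1.23-fold to 1.72-fold for these 5 genes. Slc8b1, a mitochondrial sodium-calcium exchanger gene, was the one that passed the test of genotype with edgeR (log2 fold change −0.39, adjusted p = 0.0310). That call ended without any 1 of Mir483Pat-KO replicates 1, 2 and 4 and WT replicate 3 (adjusted p = 0.0522 to 0.0654) and with offsets for GC content and length (adjusted p = 0.0812). It held in the lower range alone (log2 fold change −0.67, adjusted p = 0.0288). With DESeq2, Anxa7 passed as well (log2 fold change 0.22, adjusted p = 0.0425).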

How the data were processed

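Liver RNA of 10 fetuses, labelled as biological replicates, was sequenced as paired 50-base reads from TruSeq stranded polyA libraries. The authors aligned reads with STAR (GRCm38, per the submitters' processing notes) and deposited raw, unscaled counts for each Ensembl gene. How strand was set and how reads with several positions were treated are not given in the sources used here, which bears on Ftl1, Hamp and Hamp2. Groups came from the labels. Positions, exons and UTRs came from GENCODE M21 (GRCm38).

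Counts were tested in R 4.3.3 with edgeR 4.0.16 (filterByExpr defaults, TMM scaling, quasi-likelihood F-test, no covariate), with Benjamini-Hochberg adjustment across the 14098 genes tested. A gene passed at an adjusted p under 0.05, and the study's call adds a fold change over 1.5. CPM in the text are relative to total counts. Spread, centred values and correlations used log2 CPM after TMM scaling with a prior count of 2. Single values were compared by two-sided exact permutation over libraries (smallest possible p 0.00794), correlations by 14400 permutations within groups. Floors of 3 counts cover counting error only.

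The members and gene lists were chosen with earlier results of these data known. All 10 members were named, as were up to 4 passing genes with the smallest p per pathway list, 8 further pathway genes whatever their result (Hjv, Bmp2, Id1, Smad7, Tfrc, Cp, Hmox1 and Aco1), and the 5 genes most like Hamp. Id2 is reported as 1 of the family of SMAD targets, and was singled out after its value was seen. Marker lists covered hepatocyte, erythroid, macrophage, endothelial, stellate and neutrophil genes.

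Alternatives were RLE scaling, DESeq2 1.42.0, limma-voom (limma 3.58.1), the robust fit, omission of the low-count filter, a minimum of 10 counts in all libraries, a block for replicate number, a covariate for the range of identification numbers, the lower range alone, offsets for GC content and length, glmTreat at a fold change of 1.5, and omission of each library, 21 in all. Correlations within ranges were added after the data were seen. On simulated data with 200 genes changed 2-fold among 13987 genes tested, edgeR recovered 93.5%, and 4.59% of its calls were unchanged genes. These data were drawn with the variation typical of a gene's level. The biological coefficient of variation was 0.902 for Hamp and 0.427 for Bmp6, against a common value of 0.111. Recovery of such variable genes, or of changes under 2-fold, was not simulated. Permutations used scipy 1.17.1. Results that rest on an item withheld for evaluation are not reported here.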

Additional observations from a re-analysis of the deposited data

How the results depend on the processing

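The number of members that passed was 1, and it was 0 with GC content and length offsets, with glmTreat, and in the lower range alone, 2 with the range as a covariate (Tfr2 and Tmprss6), 3 without the low-count filter (Hamp, Tfr2 and Tmprss6), and 0 to 2 with each library left out. The number of other pathway genes that passed was 9, and it was 0 with glmTreat and 0 in the lower range alone, and ran from 2 to 11 with each library left out. It was 3, 5 and 2 without Mir483Pat-KO replicates 2, 3 and 4 and 5 without WT replicate 4 or 5. Furin and Cp passed in each of those 5 fits. With the replicate block, 2 members (Tfr2 and Tmprss6) and 12 other pathway genes passed, and same-numbered libraries deviated together at −0.0496 to 0.261 over 5 pairs, mean 0.0871, so that they share only a number.

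Directions turned as follows. With the range as a covariate, log2 fold changes were −0.10 for Hamp, 0.00592 for Slc40a1, −0.0880 for Ftl1 and −0.0553 for Hmox1. In the lower range alone they were −2.57 for Hamp, −0.14 for Ftl1 and −0.0201 for Susd6, the hepcidin sum differed by −12.5 CPM and the log2 ferritin ratio by 0.0162. With GC content and length offsets they were 0.0465 for Aco1 and 0.0218 for Rcl1. With each library left out, values ran from −0.11 to 0.0272 for Hfe, from −0.59 to 0.14 for Bmp6, from −0.0796 to 0.0402 for Slc40a1, from −0.046 to 0.0986 for Ftl1, from −0.0591 to 0.14 for Hmox1, from −0.0427 to 0.0213 for Aco1 and from −0.0906 to 0.0612 for Rcl1. Without a turn in direction, they ran from 0.90 to 2.49 for Hamp, from 11.1 to 33.5 CPM for the hepcidin sum and from −0.13 to −0.0073 for the ferritin ratio. The count of SMAD targets that passed with Hamp was 1, and 0 without the 2 farthest libraries, with centring on range, and in the lower range, where 1 gene alone could not pass. The lower range tests 6 libraries instead of 10. Elsewhere the cause was not tested. Bmp6 and Hamp2 are limited by depth, with at most 44 and 3 counts per library.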
